A study of Mus musculus with 9 samples.

Results

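The TAM family consists of the receptor tyrosine kinases Axl, Mertk and Tyro3 and their secreted ligands Gas6 and Pros1. These 5 genes were found by symbol among the 27179 genes of the deposited table, 3 of them receptors and 2 ligands, and each symbol matched 1 row. They were chosen by family membership together with the measured difference in Axl between the groups, which was known beforehand. The values of all 5 in that comparison are therefore given as a description, without a test of their own.

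TAM receptors bind Gas6 or protein S (the product of Pros1), which bridge the receptor to phosphatidylserine on the surface of apoptotic cells. Ligand binding switches on uptake of the dead cell and dampens cytokine and interferon signalling in phagocytes. In liver, Mertk is known from resident macrophages and sinusoidal endothelium, Axl from vascular, stellate and some myeloid cells, and protein S as a plasma protein made by hepatocytes. Both ligands carry a Gla domain, whose glutamates are carboxylated by a vitamin K-dependent enzyme before the protein can bind phosphatidylserine.

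Liver of 9 wild-type C57BL/6J mice was measured by poly(A) RNA-seq. Every animal was injected at 17 months of age with 3e11 vector genomes of AAV8 that expresses saCas9, a small Cas9 nuclease, from the TBG promoter, and a piece of the m-lobe was taken 3 weeks later. The vector's U6-driven guide RNA was directed at the Rosa26 locus in 4 mice (sgRosa26, the control, libraries A to D) and at Ccnd1, which encodes cyclin D1, in 5 mice (sgCcnd1, libraries E to I). The nuclease is thus present in both groups, and the TBG promoter directs it to hepatocytes, while the RNA comes from all cells of the tissue. In such bulk RNA, fewer cells of a type and less RNA per cell cannot be told apart.

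The libraries held 10840595 to 20176201 gene-assigned reads. Ccnd1, the targeted gene, ranged from 625 to 867 normalized counts in sgRosa26 and from 325 to 428 in sgCcnd1 (log2 difference -1.03, SE 0.11, limma adjusted p = 0.0116). It was the only gene called by limma, and limma called 0 genes when B, D, F, H or I was left out. Library H of sgCcnd1 stood apart in the Y-linked gene Ddx3y, with 2.00 normalized counts against at least 809.9 in each of the other libraries. The labels used here state no sex. As only sgCcnd1 held such a library, the groups may be unbalanced in sex. H was kept, and values without it are given. All listed hepatocyte markers were detected, and so were those of Kupffer, endothelial and stellate cells.

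The promoters of Axl and Mertk are shown because these receptors gave nearly all TAM receptor reads. Each run gives the 250 bases before the RefSeq start (GRCm38.p6), 5′ to 3′ on the gene's strand. Capitals mark GC boxes, the letters GGGCGG or, on the other strand, CCGCCC. Such boxes are bound by Sp1 and Sp3, which are known to drive the human AXL promoter.
Axl, chr7:25788734-25788983, minus strand: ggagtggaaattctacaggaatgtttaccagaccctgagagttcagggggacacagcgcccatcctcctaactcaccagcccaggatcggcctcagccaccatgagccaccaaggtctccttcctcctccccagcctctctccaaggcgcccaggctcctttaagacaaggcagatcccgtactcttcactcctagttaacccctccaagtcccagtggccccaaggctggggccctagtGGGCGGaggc
Mertk, chr2:128698665-128698914, plus strand: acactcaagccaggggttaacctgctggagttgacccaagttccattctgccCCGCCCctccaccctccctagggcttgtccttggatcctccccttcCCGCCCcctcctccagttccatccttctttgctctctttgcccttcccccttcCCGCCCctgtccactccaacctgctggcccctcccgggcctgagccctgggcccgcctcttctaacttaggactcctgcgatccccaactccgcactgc

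The Axl window held 1 GC box, which began 10 bases before the start, and the Mertk window held 3, which began 198, 152 and 99 bases before it. The windows of Tyro3, Gas6 and Pros1 held 3, 4 and 5 matches, with overlapping matches counted separately. A GC box was found in 32.7% of the 32851 promoter windows of this length.

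The 5 transcripts can be counted separately. The longest exact run shared by the longest coding transcripts of 2 receptors was 14 bases for each pair, and for Axl and Mertk it is gtgaagaccatgaa. The longest run shared by Gas6 and Pros1 was 12 bases. Of all 50-base windows in these transcripts, 0 recurred in a transcript of another gene in the GENCODE M21 annotation. Axl spans chr7:25757273-25788705 (minus strand, GRCm38) and overlaps no other annotated gene. Mertk lies at chr2:128698956-128802894 and overlaps the antisense gene Gm14011 and a small nucleolar RNA gene. Gas6, at chr8:13465374-13494490, overlaps the oppositely oriented gene Tmem255b. Since the use of strand in counting is not stated, reads of these overlapping partners could have been counted with Mertk or Gas6. Tyro3 (chr2:119797733-119818104) and Pros1 (chr16:62854307-62929346) overlap no annotated gene.

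Axl was the receptor with the highest expression and, of the 4 members fitted, the one with the largest difference between the groups. Its normalized counts were 440.2, 451, 425 and 398 in A to D, the sgRosa26 libraries. In the sgCcnd1 libraries E to I they were 419, 308, 310.3, 279.9 and 311. The 4 libraries F to I lay below every control, whereas E lay inside the control range, so the groups overlapped. The mean was 429 ± 23.0 in sgRosa26 (SD, n = 4) and 326 ± 53.9 in sgCcnd1 (SD, n = 5), or 76.0% of the mean in controls. On the scale of log2(normalized count + 1), the difference was -0.41 with a standard error of 0.11. Each library gave 219 to 550 Axl reads, which sets a counting error of 4.26% to 6.76%. The coefficient of variation was 5.37% in sgRosa26, near that counting error, and 16.6% in sgCcnd1. Without E the log2 difference was -0.50, and without H it was -0.36.

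Mertk, a receptor for apoptotic cell uptake by macrophages, had normalized counts of 286, 199.8, 286 and 244 among controls A to D. Those of E to I were 256, 214, 276, 195 and 272. The groups overlapped almost completely: 1 sgCcnd1 library, H, lay below every control and 0 lay above. The means were 254 ± 41.4 (SD, n = 4) and 243 ± 36.4 (SD, n = 5), a log2 difference of -0.06 with a standard error of 0.14. The lowest value of each group came from B and H, and the difference was -0.17 without B and 0.01 without H.

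Tyro3, best known from the nervous system, was close to undetected. Controls A to D gave 4, 4, 1 and 5 reads, and E to I gave 7, 5, 0, 4 and 0. It thus had 0 reads in 2 libraries and 3 reads or fewer in 3 of the 9. A count of 0 allows up to 3 reads, which is 2.94 normalized counts in G and 4.26 in I, for counting error only. Its mean of 3.11 normalized counts was below the minimum of 10 used for the fit, so it has no fitted difference, and no difference was detectable at this depth. Of all 5737 reads of the 3 receptors, 60.1% were Axl, 39.4% Mertk and 0.523% Tyro3.

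Gas6, the ligand that binds all of the receptors, was the most variable of the 4 members fitted. Its normalized counts were 1196, 1498, 778 and 1265 in A to D. In E to I they were 945, 1404, 1795, 744 and 985. High and low libraries occurred in both groups, with a span of 1.93-fold within sgRosa26 and 2.41-fold within sgCcnd1. The means were nearly equal, at 1184 ± 300.1 (SD, n = 4) and 1174 ± 422 (SD, n = 5), and the log2 difference was -0.04 with a standard error of 0.24. Counting error was only 2.34% to 3.80%, against a coefficient of variation of 25.3% in sgRosa26 and 35.9% in sgCcnd1. The residual SD of Gas6 after removal of the group means was 0.46 on the log2 scale. That was larger than in 90.9% of all genes tested, and larger than in 97.6% of the 2624 genes with a mean level within 2-fold of its own. Its sign depended on single libraries: the log2 difference was 0.10 without H, 0.08 without B, -0.22 without G and -0.23 without C.

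Pros1, which encodes the anticoagulant and TAM ligand protein S, had normalized counts of 1127, 992, 905 and 949 in A to D. The values in E to I were 1020.0, 1087, 1260.0, 1053 and 1030.4. The groups overlapped through library A, the highest control. Library G was the only one of sgCcnd1 above every control, and the other 4 sgCcnd1 libraries lay between A and the remaining controls. The means were 993 ± 96.3 (SD, n = 4) and 1090 ± 98.4 (SD, n = 5). The log2 difference was 0.13 with a standard error of 0.09, and it was positive whichever library was left out, from 0.08 without G to 0.20 without A. Pros1 was the least variable of these 4, with a residual SD of 0.13 on the log2 scale.

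**Figure D1:**
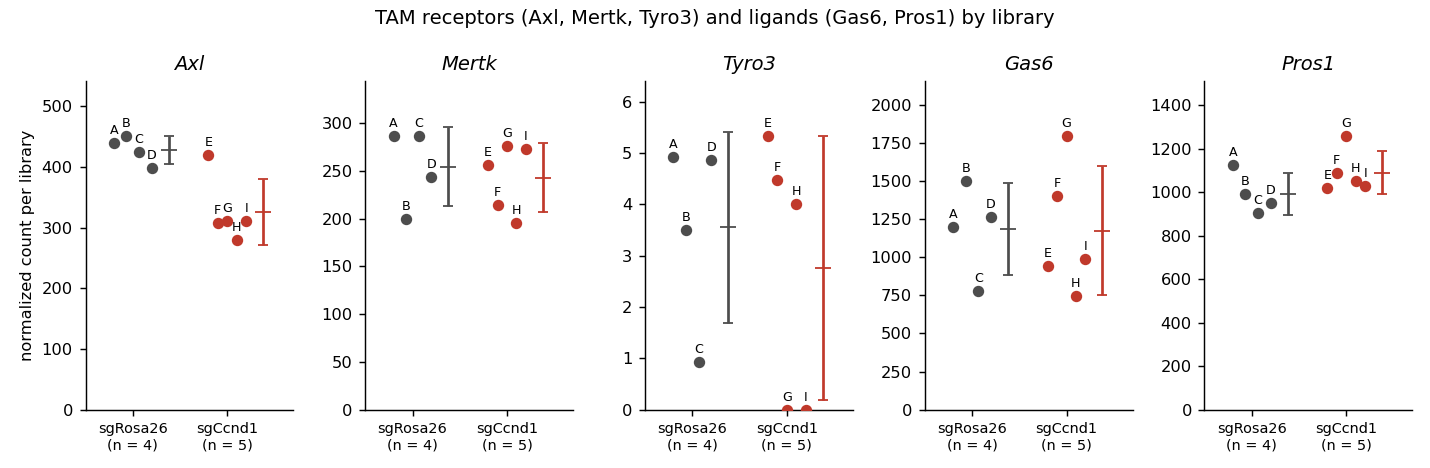
Normalized counts (vertical axes, from 0) of the 5 genes in each library, with library letters; bars give the mean and SD of 4 sgRosa26 and 5 sgCcnd1 libraries. Axl in F to I lies at 279.9 to 311, below the lowest control at 398, while E lies at 419; Mertk and Gas6 overlap broadly, Pros1 overlaps through library A, and Tyro3 is near 0.

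Of the 5 members, 4 passed the filter on low values, of which 3 were lower and 1 higher in sgCcnd1 by sign. Of all genes tested, 47.1% were lower by sign. In the fit of all 12993 genes, limma called 0 of the 4 at an adjusted p under 0.05, where 0.0077% of all genes (Ccnd1 alone) were called. At an unadjusted p under 0.05 limma had 1 of the 4, Axl, against 11% of all genes. The groups did not overlap in 0 of the 4, against 3.89% of all genes. Count models on the reads recovered from the deposited values also called 0 of the 4. DESeq2 called 0.816% of its 12739 genes with a defined adjusted p and edgeR 0.0077%. As the members were chosen with this comparison known, nothing is read from these counts.

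**Figure D2:**
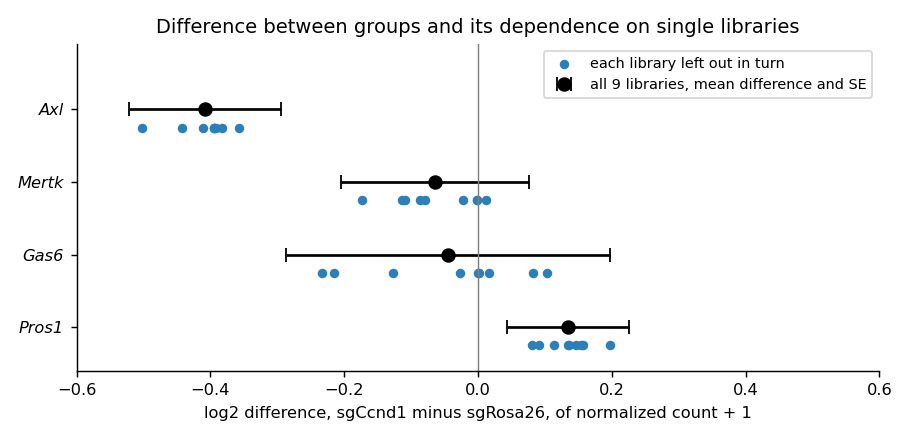
Log2 difference, sgCcnd1 minus sgRosa26, of the 4 members with enough reads (black, all 9 libraries with the standard error; blue, each library left out in turn). Axl stays between -0.50 and -0.36, Pros1 between 0.08 and 0.20, and Mertk and Gas6 lie on both sides of 0.

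Levels were also compared per kilobase of the longest coding transcript, since only these can be set against each other between genes. Gas6 had the highest level, at 465 ± 118 normalized counts per kb in sgRosa26 (SD, n = 4) and 461 ± 166 in sgCcnd1 (SD, n = 5). Pros1 followed with 300.7 ± 29.2 and 329.99 ± 29.8. The ranges of these ligands overlapped, and Gas6 was above Pros1 in 8 of 9 libraries. Axl had 100.52 ± 5.40 and 76.4 ± 12.6 normalized counts per kb, below Pros1 in each library. Mertk had 59.1 ± 9.62 and 56.4 ± 8.45, and although its range overlapped that of Axl across animals, Axl was the higher in 9 of 9 libraries. Tyro3 was far below, at 0.797 ± 0.417 and 0.619 ± 0.575.

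Ratios between members do not depend on the scaling of a library. The ratio of Axl to Mertk per kb was 1.55, 2.28, 1.498 and 1.65 in A to D and 1.65, 1.45, 1.13, 1.45 and 1.15 in E to I. It was high in B, which had the lowest Mertk among the controls. F, G, H and I lay below every control and E did not, as for Axl itself. Gas6 exceeded Axl per kb in all 9 libraries, from 3.06-fold in C to 9.68-fold in G. That ratio averaged 4.62 ± 1.12 in sgRosa26 (SD, n = 4) and 6.17 ± 2.45 in sgCcnd1 (SD, n = 5), with overlapping groups.

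Within the groups the members did not move as one unit. After the group means were removed, 6 pairs of members were compared over the 9 libraries, and 0 passed an exact permutation test within groups after adjustment. The closest pair was the ligands Gas6 and Pros1 (Pearson r = 0.68, permutation p = 0.0625; Spearman rho = 0.72, permutation p = 0.0486; adjusted p = 0.375). Without G and H, the libraries farthest from the median of Gas6, r was 0.52. Axl had an r of 0.25 with Mertk (permutation p = 0.597), 0.0012 with Gas6 (permutation p = 0.997) and -0.11 with Pros1 (permutation p = 0.736).

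The genes whose deviations from the group means were most like those of each member were ranked among 10350 genes over 9 libraries, as a description. For Axl they were Rbms3 (r = 0.97), Samhd1 (0.97) and Slc29a3 (0.96). For Mertk they were Agtr1a (r = 0.96), Rigi (0.93) and Ndrg3 (0.93). Gas6 was most like Gm6548 (r = 0.93), Smpd2 (0.93) and Itpripl1 (0.93). Pros1 was most like Rdh16f2 (r = 0.97), Tmem176b (0.96) and Tspan4 (0.95). These values are the highest of many, so their size partly reflects that choice. By Spearman rho, Ndrg3 was at 0.70, Tspan4 at 0.77, Itpripl1 at 0.80 and Rdh16f2 at 0.85. For the others rho was between 0.85 and 0.98.

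The other genes of the pathway came from lists by role, 34 genes in all, of which 29 had enough reads. In limma 0 of the 29 were called in either direction after adjustment over all genes. At an unadjusted p under 0.05, 4 were higher and 3 lower, where 11% of all genes passed in either direction. The groups did not overlap in 2 of the 29, against 3.89% of all genes. Their median log2 difference was 0.02, against 0.01 over all genes tested. By sign, 15 were higher and 14 lower, where 47.1% of all genes tested were lower.

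Among the alternative ligands, only Lgals3 (galectin-3, which binds Mertk) had enough reads. It averaged 104 ± 36.3 normalized counts in sgRosa26 and 68.1 ± 14.4 in sgCcnd1, a log2 difference of -0.57 (SE 0.22, limma adjusted p = 0.373), or -0.36 without library B. The sheddases, which cut TAM receptors from the cell surface, differed little, with log2 differences of 0.05 for Adam17 (limma adjusted p = 0.877) and -0.04 for Adam10 (0.926). The vitamin K cycle was also near the control level. Ggcx, the carboxylase that modifies the Gla domain, was at 0.09 (limma adjusted p = 0.741) and Vkorc1, which regenerates vitamin K, at -0.06 (0.883).

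Of 11 adaptors and kinases downstream of the receptors, 5 were higher and 6 lower by sign. Ptk2, focal adhesion kinase, had the smallest p, with 231 ± 16.9 and 272 ± 11.5 normalized counts and no overlap between the groups (log2 difference 0.23, limma adjusted p = 0.361). Src was at -0.54 (limma adjusted p = 0.461). Among 4 genes of the feedback on cytokine signalling, 2 were higher and 2 lower by sign. Ifnar1, a subunit of the type I interferon receptor, was at 0.10 (limma adjusted p = 0.669).

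Of 8 regulators of receptor transcription, 5 were higher and 3 lower. Ppard, a nuclear receptor, was at -0.66 (SE 0.19, limma adjusted p = 0.282). The GC-box factors Sp1 and Sp3 from this list, given for the promoters above, were at 0.17 (limma adjusted p = 0.560) and 0.15 (0.558).

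Other genes of apoptotic cell clearance were given by a list of 35, of which 31 had enough reads. In limma 0 were called, 2 were higher and 2 lower at an unadjusted p under 0.05 (11% of all genes in either direction), and 2 did not overlap between groups (3.89% of all genes). By sign 12 were higher and 19 lower, where 47.1% of all genes tested were lower. The median log2 difference was -0.07 (-0.12 without a filter, -0.04 at a minimum mean of 100 and -0.05 without library I). C1qa, a complement bridge to dying cells, had 599 ± 75.6 and 471 ± 56.6 normalized counts (log2 difference -0.35, limma adjusted p = 0.326). Itgb3, an integrin subunit for phosphatidylserine-bound Mfge8, was at 0.47 (limma adjusted p = 0.334).

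The Gla domain of the ligands is shared with other vitamin K-dependent proteins, of which some are clotting factors and some are not. Of 12 such genes, 10 had enough reads and limma called 0 (0.0077% of all genes), with 0 at an unadjusted p under 0.05 (11% of all genes). By sign 7 were higher and 3 lower, with a median log2 difference of 0.10 (0.0017 with quantile normalization, 0.06 with 75th percentile rescaling, and 0.05 to 0.06 without B, F or G). F7, a clotting factor, was at 0.15 (limma adjusted p = 0.589) and Mgp, a calcification inhibitor, at -0.56 (0.588). Pros1, at 0.13, lay within the range of its family.

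Among other receptor tyrosine kinases, 33 of 49 had enough reads and limma called 0. By sign 10 were higher and 23 lower, where 47.1% of all genes tested were lower. At an unadjusted p under 0.05, 2 were higher and 3 lower (11% of all genes in either direction), and the median log2 difference was -0.10 (-0.06 at a minimum mean of 100 or without library C, and -0.18 without D). Pdgfrb, a receptor of stellate cells and pericytes, had the smallest p of the list (log2 difference -0.50, SE 0.17, limma adjusted p = 0.333). Its normalized counts were 248, 303, 245 and 221 in A to D and 259.96, 160.2, 153, 145 and 196 in E to I. As for Axl, F to I lay below every control and E did not. Pdgfra, named here after its values were seen, showed the same order (144, 157, 152 and 113; then 146, 88.6, 96.9, 69.0 and 112). Outside stellate cells, Csf1r, the macrophage growth factor receptor, and Stab1, a scavenger receptor of sinusoidal endothelium and macrophages, had F to I below every control as well, with E above every control. Csf1r was at 419 to 485 normalized counts in F to I, 605 in E and 500.5 to 595 in sgRosa26. Stab1 was at 581 to 678 in F to I, 875.2 in E and 689.5 to 874 in sgRosa26. C1qa, C1qc and Lgals3, from the clearance and ligand lists, also had F to I below every control, with E inside the control range. Csf1r, Stab1 and C1qc were named after their values were seen. Of the 8 listed sinusoidal endothelial markers, which do not include Stab1, 0 had F to I below every control. Their log2 differences ran from -0.38 for Lyve1 to 0.09 for Kdr, and 6 were lower. Stab2, a relative of Stab1, was at 0.02 and Clec4g at -0.04. Among stellate markers, 4 sgCcnd1 libraries lay below every control for Pdgfrb and Col3a1, 3 for Reln and Cygb, and fewer for the others. The share of all genes with F to I below every control was not counted. Egfr, a receptor of hepatocytes, was at 0.86 (SE 0.30, limma adjusted p = 0.334).

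**Figure D3:**
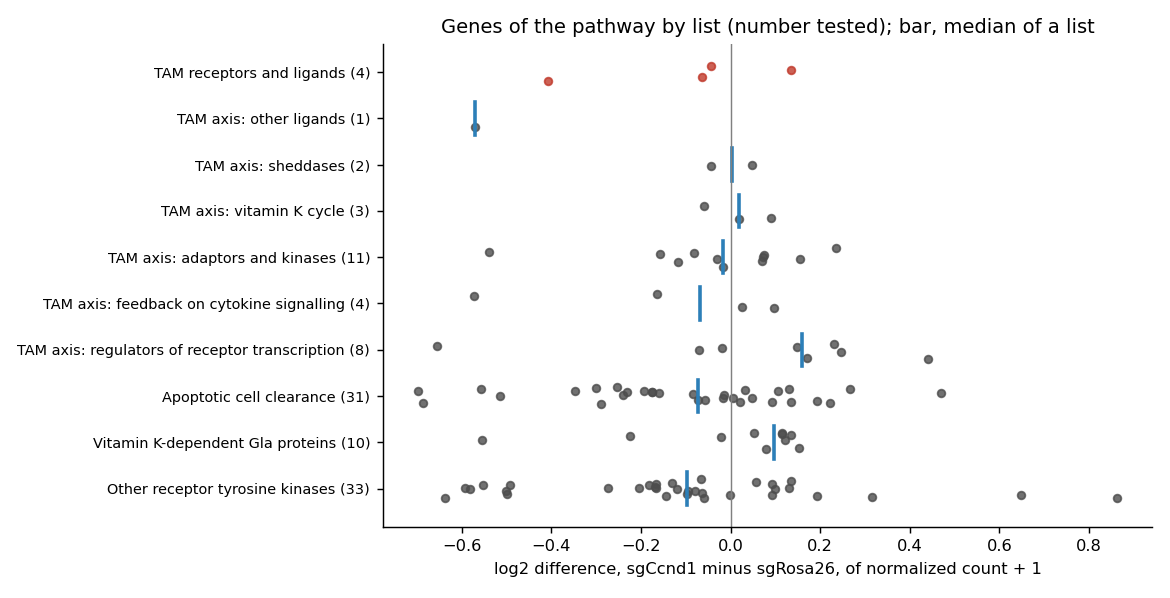
Log2 difference, sgCcnd1 minus sgRosa26, of each gene tested in 9 lists (grey points, blue bar at the list's median) and of the 4 TAM members (red). The medians of the lists of more than 5 genes lie between -0.10 and 0.16, and Axl lies at -0.41.

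Markers of the cells that can carry TAM receptors were set beside Axl. Of 8 Kupffer cell markers, 4 were higher and 4 lower by sign, and their summed level was 1844 to 2786 normalized counts in sgRosa26 and 1932 to 2430.0 in sgCcnd1. Their median log2 difference was 0.0014, or -0.12 without H. Monocyte and monocyte-derived macrophage markers were lower in 10 of 10 (47.1% of all genes tested), with a median log2 difference of -0.50. Their summed level was 2505 to 3421 in sgRosa26 and 1981 to 2428 in sgCcnd1, without overlap. Lyz2, Spp1 and Csf1r weigh most in that sum, with means of 991, 1019 and 546 in sgRosa26. Spp1 is also on the cholangiocyte list. Limma called 0 of the 10 markers after adjustment (0.0077% of all genes), and the smallest adjusted p was 0.225, for Lyz2. At an unadjusted p under 0.05, 3 of the 10 were lower (11% of all genes in either direction), and the groups did not overlap in 2, Lyz2 and Ccr2 (3.89% of all genes). Stellate cell and fibroblast markers were lower in 9 of 10, 4 of them at an unadjusted p under 0.05 (median -0.35; summed level 3904 to 6428 against 3496 to 5195). Dendritic cell markers were lower in 5 of 5 tested, 1 at an unadjusted p under 0.05 (median -0.36; 204 to 254 against 133 to 210.0). Sinusoidal endothelial markers were lower in 6 of 8 (median -0.05, or -0.10 without E and -0.0023 without H; 2457 to 3639 against 2717 to 3910.0). Hepatocyte markers were split evenly, 4 higher and 4 lower, with a median of 0.02 (0.05 without E and 0.07 without H). No listed marker of these cell types was at 0 in all libraries, and their part in the Axl difference was not tested.

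The level of each member was also set against the marker lists within the groups. Of 44 relations between 4 members and 11 marker lists, 0 passed after adjustment (smallest adjusted p = 0.199), and those with the smallest p were those of Axl. With the stellate list, Axl had r = 0.79 (permutation p = 0.00625) and rho = 0.90 (permutation p = 0.00556) over 9 libraries. Without D and E, the libraries farthest from the median of the list, r was 0.80, and it was 0.76 without E alone and 0.79 without H alone. With the endothelial list, r was 0.81 (permutation p = 0.00972), rho was 0.92 (permutation p = 0.0104) and r without D and E was 0.80 (0.71 without E alone and 0.79 without H alone). With the Kupffer list, r was -0.80 (permutation p = 0.0181), rho was -0.83 (permutation p = 0.00903) and r without D and H was -0.71 (-0.91 without E alone and -0.72 without H alone). With Marco left out of that list, r was -0.40 (permutation p = 0.183), rho was -0.60 (permutation p = 0.0778) and r without E and H was -0.69. Axl also had r = 0.49 with cholangiocyte markers (permutation p = 0.0177; rho = 0.68, permutation p = 0.0125; r = 0.60 without B and C, 0.72 without E alone and 0.43 without H alone). With T and NK cell markers r was 0.65 (permutation p = 0.0465; rho = 0.63, permutation p = 0.0774; r = 0.96 without A and E, 0.46 without E alone and 0.53 without H alone). With monocyte markers r was 0.63 (permutation p = 0.0368; rho = 0.65, permutation p = 0.0729; r = 0.85 without B and F, 0.78 without E alone and 0.52 without H alone). Library E had the highest value of sgCcnd1 in 8 of 10 stellate and 7 of 8 endothelial markers. The same held for 5 of 6 B and plasma cell and 4 of 5 T and NK cell markers. It held for 4 of 8 Kupffer, 3 of 10 monocyte, 2 of 5 dendritic and 1 of 5 cholangiocyte markers. For hepatocyte, neutrophil and red cell markers the count was 0 of 8, 0 of 3 and 0 of 4. For Gas6, the relation with red cell markers had the smallest p, with r = 0.67 (permutation p = 0.0667, adjusted p = 0.395) and rho = 0.77 (permutation p = 0.0271). Without A and B its r was 0.86, and it was 0.65 without E alone and 0.56 without H alone.

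**Figure D4:**
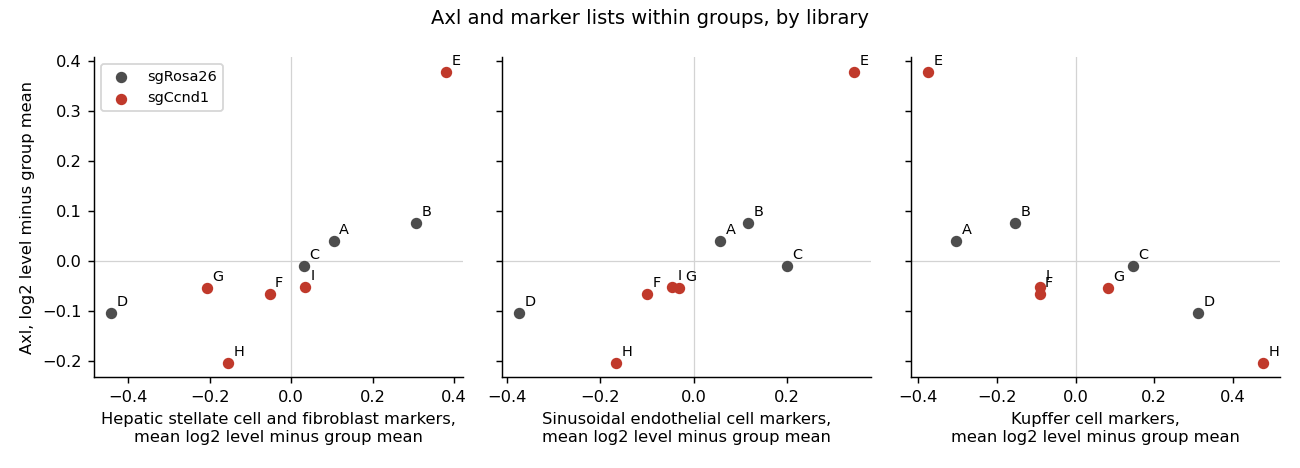
Axl (vertical axis) against the mean log2 level of 3 marker lists (horizontal axes), both as the deviation from the mean of the library's own group; each point is a library. E is highest for Axl and far right for stellate and endothelial markers; for Kupffer markers r is -0.80, and -0.40 without Marco.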

How the data were processed

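Gene-assigned reads were turned by the authors into a table of normalized counts, a never-negative signal for 27179 Entrez genes. Per the submitters' processing notes, Trim Galore 0.6.7, HISAT2 2.2.1, featureCounts 2.0.3 and DESeq2 (2.11.40.8) were used with mm10 (GRCm38). Their settings and the use of strand are not given in the sources used here. In each library 100% of the deposited values were whole multiples, within 0.1, of what 1 read is worth; the whole reads were recovered by division. Counting error of those reads does not cover animal variation.

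The 12993 genes that averaged 10 or more normalized counts were fitted as log2(normalized count + 1) with limma 3.58.1 in R 4.3.3 (lmFit, eBayes with trend, two-sided, no covariates). Benjamini-Hochberg adjustment covered all genes tested, and 0.05 was the threshold. Differences on this scale understate those of low genes. edgeR 4.0.16 and DESeq2 1.42.0 were run on the recovered reads. The procedures were tested on simulated counts.

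Columns name the guide, which gave the group, and an animal number that the labels do not repeat, and the letters follow column order. Whether the labels' samples are separate animals rests on those labels. Correlations across libraries used deviations from group means and exact two-sided permutation within groups, chosen after the data were seen. Transcripts and overlaps came from GENCODE M21 and promoters from RefSeq (all 5 members matched), both GRCm38.

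The members and lists were chosen with earlier results of these data known. The text names the 5 members, Ccnd1, the 2 genes of each pathway list with the smallest p and the 3 genes most like each member among those with a mean of at least 50. Some genes that this rule names are not reported here. Sp1, Sp3, Lyz2, Ccr2, Marco, Clec4f, Csf1r, Stab1, Stab2, Kdr, Clec4g and Pdgfra were named after their values were seen. So were Lyve1, Col3a1, Reln, Cygb, C1qc and Spp1. Marker lists for cholangiocytes, T and NK cells, B and plasma cells, neutrophils and red cells were examined as well.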

Additional observations from a re-analysis of the deposited data

Results flagged for a closer look

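The 5 members were examined in both groups, 10 groups of values in all, for a library far from the rest. Chance gives such a value in about 1 of 20 groups, and there were 2.

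Axl in sgCcnd1 library E was at 419 normalized counts, against 311 in the next highest library of its group. The gap was 0.778 of the range of the group. Pros1 in sgCcnd1 library G was at 1260.0 normalized counts, against 1087 in the next highest, a gap of 0.722 of the range. G was also the library with the most Gas6, at 1795 normalized counts.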

How the results depend on the processing

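The log2 difference of Axl was negative in 21 of 21 alternatives (from -0.50 without library E to -0.35 with DESeq2 without H), and that of Pros1 positive in 21 of 21. Mertk kept its sign in 20 and Gas6 in 14 of 21, and 0 of the 4 differences moved by more than the SD between libraries. The count of members called was 0 throughout. Of all genes, limma called 1 lower. Quantile normalization gave 2 lower, and the other settings gave 70 with DESeq2, 25 with DESeq2 without H, 0 with edgeR without H, and 0 to 2 when a library was left out (0 without B, D, F, H or I; 2 without E or G). Genes called higher (limma 0) numbered 34 in DESeq2 and 16 in DESeq2 without H. Pathway genes called, 0 by limma, numbered 1 with DESeq2 and 1 without H. The cause was not tested. The settings without H in count models were added later, with the data in view. No paired analysis was possible because the column names hold no replicate number, and the labels tie the numbers to no shared litter, batch or day. Depth limits Tyro3, which had at most 7 reads in a library.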

Other observations

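The marker lists whose group differences are not given above had these values, where 47.1% of all genes tested were lower by sign. T and NK cell markers had a median log2 difference of -1.41 over 5 genes tested, all lower in sgCcnd1, with a summed level of 93.4 to 249.8 normalized counts in sgRosa26 and 47.0 to 165 in sgCcnd1, and limma called 0 of them after adjustment (0.0077% of all genes) and 5 of 5 at an unadjusted p under 0.05 (11% of all genes). B and plasma cell markers were lower in 6 of 6 (median -0.45), cholangiocyte markers in 3 of 5 (-0.31, or -0.19 without H), neutrophil markers in 2 of 3 (-0.42) and red cell markers in 2 of 4 (0.05, or 0.10 without E and 0.18 without H). Marco, a scavenger receptor of Kupffer cells, ranged from 9.15 normalized counts in library E to 376 in H, while Clec4f, which marks the same cells, was at 784 in E and 528 in H.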
